A study of Mus musculus with 16 samples.

Results

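The cells described here are the T cells that the authors of the data named Tregs (regulatory T cells) and that held RNA of the CD3 complex, in mouse neuroblastoma tumors. A cell was included when the authors had given it that name and at least 1 UMI of Cd3d, Cd3e or Cd3g was counted in it. A UMI (unique molecular identifier) marks 1 captured RNA molecule. By this rule 578 of 20376 cells were members: 92 in the WT sorted library, 371 in the KO sorted library, 6 in the WT tumor library and 109 in the KO tumor library. Members were thus chosen by measured values, the authors' grouping of the cells by RNA and the CD3 counts. The genes that set these cells apart from other T cells are therefore given as a description.

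The mice were male C57BL/6 animals of 8 weeks, either WT (wild type) or KO. The sample labels give the KO genotype as CD200R-/- and the description of the mice gives CD200-/-. Each mouse received NB9464D cells, a mouse neuroblastoma line, under the skin, and on day 28 the tumor was broken up and digested with 1 mg/mL Type IV collagenase. Sorted libraries held CD45+ leukocytes and tumor libraries held all cells, and both were made with 10x Genomics 3' V3 chemistry. The labels list 4 samples in each of the 4 groups, but a cell is tied only to its group, so each group was 1 library. There was thus no spread between animals to set a difference against, and no test was made. All intervals are exact 95% intervals for counting error only, and genotype cannot be told apart from any other difference between the libraries.

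Regulatory T cells restrain other immune cells and are held in that state by the transcription factor Foxp3. They take up interleukin 2 through its high-affinity receptor, whose alpha chain is encoded by Il2ra, and they carry the inhibitory receptor CTLA-4 on their surface. In tissues and tumors many of them turn on an effector program with the interleukin 33 receptor (Il1rl1), the receptor Klrg1 and the growth factor amphiregulin (Areg). CD200R is an inhibitory receptor found on myeloid cells and on some T cells, and its ligand is CD200.

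The targeted receptor was counted first. Cd200r1 (chromosome 16, 44765736 to 44794978, plus strand, in GENCODE vM21 on mm10) had 34 UMIs in the 92 WT sorted members and 0 in the 371 KO sorted members. It was seen in 26.1% of WT sorted members, in 1 of the 6 WT tumor members and in 0% of members of both KO libraries. In CD4 T cells it was seen in 4.03% of WT sorted cells and in 0% of KO cells. A count of 0 in 371 cells allows a share of cells with a Cd200r1 UMI of up to 0.989% (exact binomial). The counts thus go with the label CD200R-/-. Cd200, the gene of the ligand (chromosome 16, 45382135 to 45409053, minus strand), had UMIs in WT and KO cells. It was seen in 10.9% of WT sorted, 26.1% of KO sorted and 10.1% of KO tumor members.

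The libraries differed in depth. The median depth of members was 4833 UMIs (WT sorted), 3665 UMIs (KO sorted), 1909 UMIs (KO tumor) and 800 UMIs (WT tumor). RNA of ribosomal protein genes took 28.1% of the UMIs of WT sorted members and 16.8% in KO sorted members. Shares of cells with a UMI are therefore also given after thinning each cell of at least 1000 UMIs to 1000 UMIs. Cells below that depth were left out, so these shares rest on 89 WT sorted, 366 KO sorted and 98 KO tumor members. Ratios and gene counts after thinning used the members that still held a CD3 UMI, 72 WT sorted and 299 KO sorted. The 6 WT tumor members held 8410 UMIs in all and were counted but not compared gene by gene.

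The name was set beside 4 genes of regulatory T cells: Foxp3, Il2ra, Ctla4 and Ikzf2, which encodes the transcription factor Helios. The authors grouped the cells by RNA, so these shares describe the class and are no independent check of its name. Foxp3 (chromosome X, 7573644 to 7595245, plus strand) was seen in 26.1% of WT sorted, 45.0% (39.9 to 50.2) of KO sorted and 34.9% of KO tumor members. After thinning the shares were 11.2%, 24.0% and 25.5%. In the cells that the authors named CD4 T cells, held to the same CD3 rule, Foxp3 was seen in 1.61% of WT sorted, 4.28% of KO sorted and 1.59% of KO tumor cells. B cells, which should lack the gene, had Foxp3 in 0% of WT sorted, 0.212% of KO sorted and 0% of KO tumor cells, at median depths of 3118, 2168 and 1153 UMIs. For the 327 KO tumor B cells the upper bound of that share was 1.12%. The share in members thus stood above that background in each of the 3 libraries.

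At least 1 of the 4 genes was found in 73.9% (63.7 to 82.5) of WT sorted and 86.3% (82.3 to 89.6) of KO sorted members. The thinned shares were 49.4% and 74.6%. In CD4 T cells these shares were 13.3% and 26.2% before thinning. At least 2 of the genes were found together in 48.9% of WT sorted and 69.3% of KO sorted members, and all 4 in 13.0% and 36.4%. None of the 4 was found in 26.1% of WT sorted, 13.7% of KO sorted and 19.3% of KO tumor members. Ikzf2 was seen in 62.0% of WT sorted and 69.8% of KO sorted members, and Ctla4 in 47.8% and 70.6%.

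**Figure D1:**
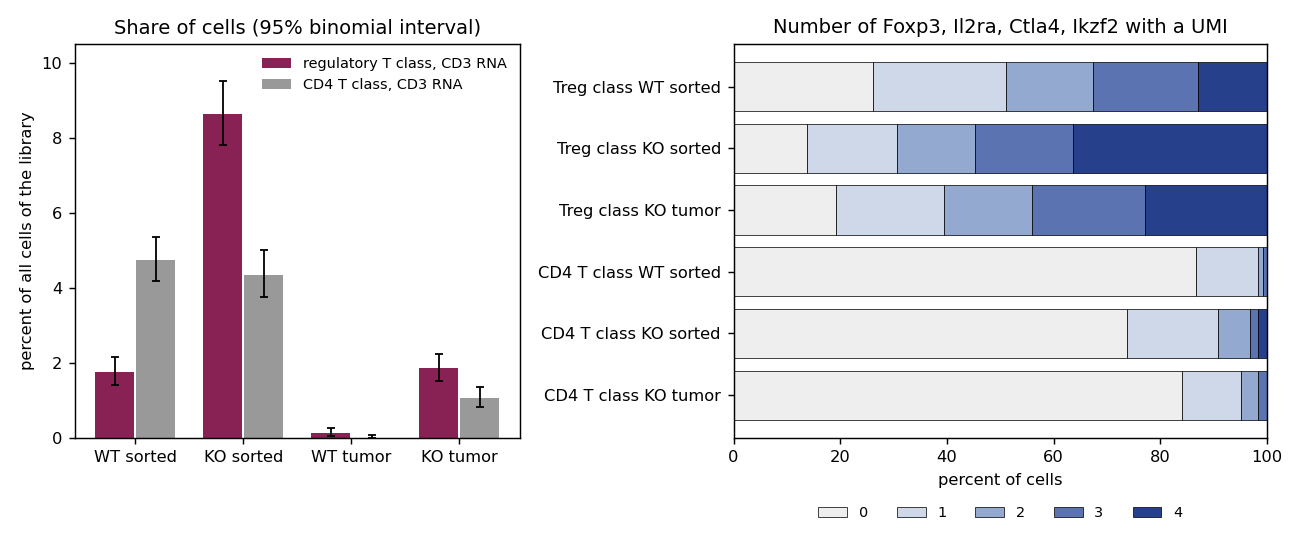
Left, members and CD4 T cells as a percent of all cells of each library, with exact 95% binomial intervals. Right, percent of each class (Treg class, the members, and CD4 T class) by how many of Foxp3, Il2ra, Ctla4 and Ikzf2 were seen in the cell. Members were 1.76% of WT sorted and 8.62% of KO sorted cells, and 36.4% of KO sorted members held all 4 genes.

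The class was not a pure set of CD4 regulatory T cells. Cd4 itself was seen in 29.3% of WT sorted and 46.1% of KO sorted members, close to the 36.7% and 45.5% of cells named CD4 T cells. Cd8a or Cd8b1, the chains of CD8, were seen in 20.7% of WT sorted, 14.6% of KO sorted and 9.17% of KO tumor members. They were also seen in 10.1%, 9.63% and 1.59% of CD4 T cells of these libraries. Trdc, the constant segment of the delta chain of the gamma delta T cell receptor, or Cd163l1, a scavenger receptor of gamma delta T cells, was seen in 9.78%, 8.09% and 8.26% of members. The shares in CD4 T cells were 3.63%, 2.67% and 1.59%. Of the members with either gene, 1 of 30 in the KO sorted library, 0 of 9 in the WT sorted and 0 of 9 in the KO tumor library had Foxp3. Constant segments of the T cell receptor were seen in 97.8% of WT sorted, 96.8% of KO sorted and 92.7% of KO tumor members.

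RNA of other lineages was also present, and that of B cells and macrophages was higher in the WT sorted members. Cells with at least 3 markers of another lineage made up 43 of 92 WT sorted (46.7%), 50 of 371 KO sorted (13.5%) and 8 of 109 KO tumor members (7.34%). Macrophage markers reached that mark in 31, 19 and 3 cells, and B cell markers in 23, 33 and 3. In the WT sorted library the members with such markers had a median of 7586 UMIs and the other members 3446, and the mark was not adjusted for depth. CD4 T cells differed the same way. Such cells were 59 of 248 in the WT sorted (23.8%) and 3 of 187 in the KO sorted library (1.60%). The summed level of B cell markers was 4284 CPM (UMIs per 1000000 UMIs) in WT sorted and 1057 CPM in KO sorted members, and that of macrophage markers 705 and 374 CPM, with Csf1r at 0 in the WT sorted members. Lyz2, a lysozyme of macrophages, was seen in 44.6% of WT sorted and 9.16% of KO sorted members, and in 33.6% and 4.98% of B cells. Whether the members with such markers were pairs of cells captured together, or took up free RNA, was not tested. The main results below are also given without these cells.

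Cells on either side of the CD3 rule were few. Of the cells the authors named Tregs, 2 WT sorted, 25 KO sorted and 7 KO tumor cells had no CD3 UMI and were left out. Those of the KO sorted library had a median of 2009 UMIs, and 7 of the 25 had Foxp3, 15 Il2ra, 15 Ctla4 and 17 Ikzf2. Members with exactly 1 CD3 UMI numbered 1, 28 and 8. In the KO sorted library these had a median of 1733 UMIs, and 6 of the 28 had Foxp3, 16 Il2ra, 19 Ctla4 and 18 Ikzf2. Barcode sequences found in more than 1 library numbered 113, and 2 KO sorted, 3 WT tumor and 1 KO tumor members carried one.

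Members made up a larger part of the KO than of the WT sorted library. They were 1.76% (1.42 to 2.16) of all WT sorted cells and 8.62% (7.80 to 9.50) of all KO sorted cells, a difference of 6.86 percentage points (5.94 to 7.80). Within the T cell classes with CD3 RNA they were 12.6% and 38.4%. CD4 T cells were 4.75% and 4.34% of the same libraries. For each CD4 T cell there were thus 0.371 members in the WT and 1.98 in the KO sorted library, a ratio of 5.35 (3.93 to 7.28). Members with a Foxp3 UMI alone were 0.460% and 3.88% of all cells. In the tumor libraries, which were not sorted, members were 0.121% of WT and 1.85% of KO cells, and 1.87% and 8.81% of the leukocyte classes. The WT tumor library held no CD4 T cell with CD3 RNA, so no ratio to them was formed there. A share of captured cells does not tell more of one class from fewer of the others.

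Levels of single genes were compared between KO and WT sorted members as CPM. A log2 ratio is given relative to the median gene, whose level by total UMIs was 0.428 higher (log2) in KO members. A gene was called higher or lower when it had at least 50 UMIs over both libraries and differed by at least 2-fold. Of 5541 genes with that many UMIs, 604 (10.9%) were higher and 643 (11.6%) were lower in KO members. Taken by total UMIs, with no setting to the median gene, the same rule gave 1302 higher and 224 lower. With totals that leave out ribosomal, mitochondrial and hemoglobin genes it gave 927 and 385, so the balance of higher and lower genes rests on the scaling. Of 88 ribosomal protein genes, 54 were among the lower. Many of the called genes differed the same way in CD4 T cells. Of the higher genes 260 had 50 UMIs there, and 123 of them were at least 2-fold higher in KO CD4 T cells. Of the lower genes 494 had 50 UMIs there, and 354 of them were at least 2-fold lower. Over all 3716 genes with 50 UMIs in CD4 T cells, 415 were higher and 642 lower.

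Genes that define regulatory T cells were mostly higher in KO members. Of the 18 genes of this list with at least 20 UMIs, 13 were at least 1.5-fold higher and 1 was lower, with a median log2 ratio of 1.00. Over all 8158 genes with 20 UMIs, 24.1% were that much higher and 25.9% lower, with a median of -0.03. Without the cells that held other lineage markers 9 were higher and 1 lower, and among cells with a Foxp3 UMI 12 were higher and 1 lower. All KO to WT values among cells with a Foxp3 UMI rest on 24 WT sorted and 167 KO sorted members. The same list in CD4 T cells had 8 of 12 genes higher and 2 lower in KO cells, with a median of 1.33. Over all 6470 genes with 20 UMIs in those cells 1796 were higher and 1773 lower (median 0.05). The rise was thus not particular to members. The lists used here were drawn up with earlier results of these data known.

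Foxp3 had 93.3 CPM in WT sorted, 366 CPM in KO sorted and 314 CPM in KO tumor members. The log2 ratio of KO to WT sorted members was 1.54 (1.11 to 2.01). It was 1.20 once cells holding other lineage markers were left out, and 0.99 after thinning. In CD4 T cells, which come from the same libraries, the ratio was 0.69.

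Il2ra, the alpha chain of the interleukin 2 receptor, had 135 CPM in WT sorted members against 780 CPM in KO sorted members, a log2 ratio of 2.10 (1.75 to 2.48). It was 1.75 among cells with a Foxp3 UMI and 1.58 without cells holding other lineage markers. Il2ra was seen in 32.6% of WT and 61.2% of KO sorted members. Ctla4 had 338 and 1383 CPM (log2 ratio 1.61, 1.38 to 1.84), and Ikzf2 had 576 and 2280 CPM (log2 ratio 1.56, 1.38 to 1.74). All 3 were also higher in KO than in WT sorted CD4 T cells, where the log2 ratios were 2.04 for Il2ra, 2.20 for Ctla4 and 2.88 for Ikzf2, at far lower levels. Whether the distance in members differs from that in CD4 T cells was not tested.

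Costimulatory receptors of the tumor necrosis factor family were among the other genes of the list. Tnfrsf9, which encodes 4-1BB, had 75.5 CPM in WT sorted, 721 CPM in KO sorted and 516 CPM in KO tumor members. Its log2 ratio was 2.83 (2.36 to 3.33), 3.04 without cells holding other lineage markers and 1.93 among cells with a Foxp3 UMI. Tnfrsf4, which encodes OX40, had 330 and 801 CPM (log2 ratio 0.85), but 0.08 among cells with a Foxp3 UMI. Tnfrsf1b, the second receptor of tumor necrosis factor, had 53.6 and 301 CPM (log2 ratio 2.06), and Icos, a receptor of the CD28 family, 312 and 854 CPM (log2 ratio 1.03). Lrrc32, which holds latent transforming growth factor beta at the cell surface, had 9.93 and 74.4 CPM (log2 ratio 2.48, 1.21 to 4.13). Capg, an actin-capping protein, was the member of the list that was lower, at 512 and 336 CPM (log2 ratio -1.03).

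**Figure D2:**
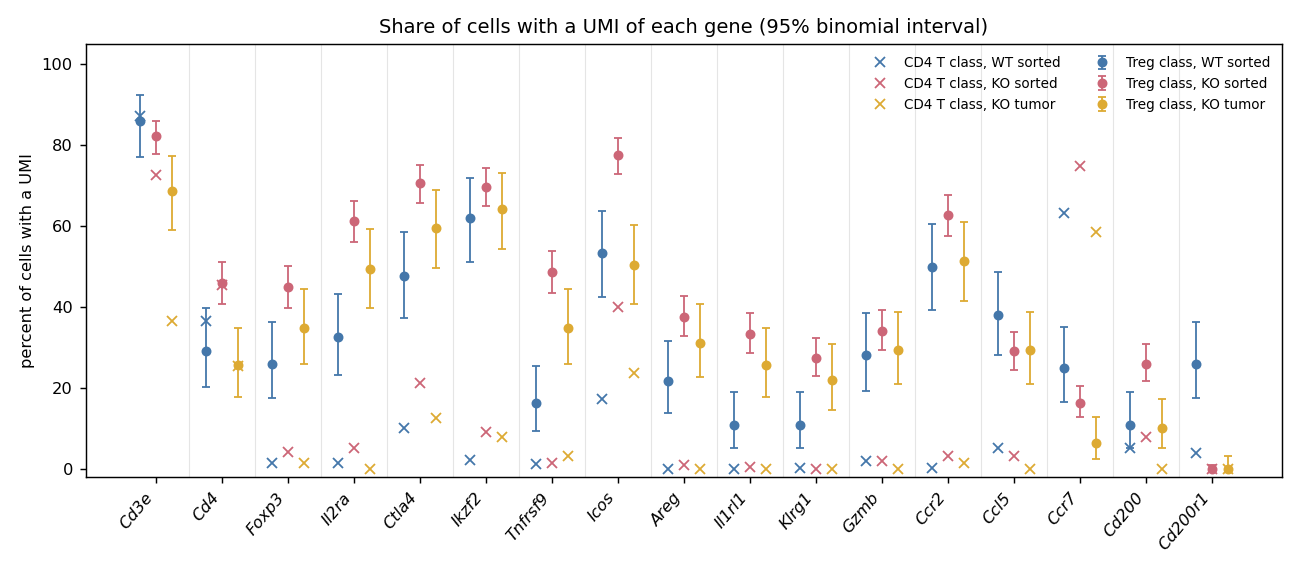
Percent of cells with at least 1 UMI of each gene, with 95% binomial intervals for members (circles) and crosses for CD4 T cells, by library; depth differs between libraries. Members stand above CD4 T cells for Foxp3, Il2ra, Ctla4 and Ikzf2 in each library, and Cd200r1 is at 0% in both KO libraries.

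Genes of the effector program of tissue regulatory T cells were higher in KO members, though not all of them. Of 23 genes with 20 UMIs, 14 were at least 1.5-fold higher and 2 lower, with a median log2 ratio of 1.06. Among cells with a Foxp3 UMI 11 of 22 were higher and 5 lower. The same list in CD4 T cells had 6 of 13 genes higher and 4 lower, with a median of 0.44. Il1rl1 had 29.8 CPM in WT sorted, 397 CPM in KO sorted and 282 CPM in KO tumor members, a log2 ratio of 3.31 (2.58 to 4.15). It was seen in 10.9%, 33.4% and 25.7% of members, and in 0.206% of WT sorted and 0% of KO sorted B cells. Klrg1 had 39.7 and 179 CPM in the sorted members, a log2 ratio of 1.74 that came to 0.98 without cells holding other lineage markers. Gata3, a transcription factor of type 2 responses, had 125 and 576 CPM (log2 ratio 1.78).

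Itgb8, an integrin chain that frees active transforming growth factor beta, had 4 UMIs in WT and 209 UMIs in KO sorted members, 7.94 and 133 CPM. Its log2 ratio was 3.64 (2.26 to 5.53). Il10, the inhibitory cytokine interleukin 10, had 6 and 163 UMIs, 11.9 and 104 CPM, and was seen in 3.26% and 8.36% of cells. Its log2 ratio was 2.69 (1.54 to 4.16), and 0.86 after thinning, where WT members held 3 UMIs. Itgav, the alpha V integrin chain that pairs with the product of Itgb8, had 83.4 and 574 CPM (log2 ratio 2.35). Maf, a transcription factor that acts on Il10, had 336 and 1060 CPM (log2 ratio 1.23), and Irf4, a transcription factor of effector T cells, 27.8 and 128 CPM (log2 ratio 1.78).

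Areg and Gzmb did not follow these genes. Areg had 369 CPM in WT sorted, 606 CPM in KO sorted and 746 CPM in KO tumor members. The log2 ratio of the sorted members was 0.29 (0.06 to 0.52), and it was -0.20 without cells holding other lineage markers and -0.63 among cells with a Foxp3 UMI. Gzmb, which encodes the protease granzyme B, had 395 and 488 CPM, a log2 ratio of -0.12 (-0.35 to 0.11). Ccr2, a receptor for monocyte chemoattractants, had 379 and 854 CPM (log2 ratio 0.74), below the 2-fold mark.

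By the rule that named the 10 highest and the 10 lowest genes, the highest were Penk, Il13, Itgb8, Gm42031, Il1rl1, Nr4a3, Ccl1, Ell2, Tnfrsf9 and Il10. Penk, the precursor of enkephalin peptides, led with 21.8 CPM in WT sorted, 446 CPM in KO sorted and 246 CPM in KO tumor members. Its log2 ratio was 3.92 (3.08 to 4.93), 3.65 without cells holding other lineage markers and 2.59 among cells with a Foxp3 UMI. Nr4a3, a nuclear receptor turned on by T cell receptor signals, had 21.8 and 291 CPM (log2 ratio 3.31), and in CD4 T cells its ratio was 4.18.

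Il13 and Ccl1 came from few cells. Il13, the type 2 cytokine interleukin 13, had 3 UMIs in WT and 161 UMIs in KO sorted members, the latter in 5.12% of cells. Without cells holding other lineage markers the count in KO members was 64 UMIs and the log2 ratio 1.39, against 3.68 (2.10 to 5.97) over all members. Ccl1, a chemokine of activated T cells, had 5 and 159 UMIs, in 3.77% of KO cells. After thinning it was seen in 0% of WT and 1.64% of KO sorted members. Its log2 ratio there, -0.04, is thus only a lower bound and gives no direction. Il5, another type 2 cytokine, had 0 UMIs in WT and 73 UMIs in KO sorted members, at least 2.53 (log2) higher. Of the helper cytokine list, 7 of 13 genes were at least 1.5-fold higher and 2 lower (median log2 ratio 1.05). Without cells holding other lineage markers these were 5 and 2 of 12, with a median of 0.12.

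**Figure D3:**
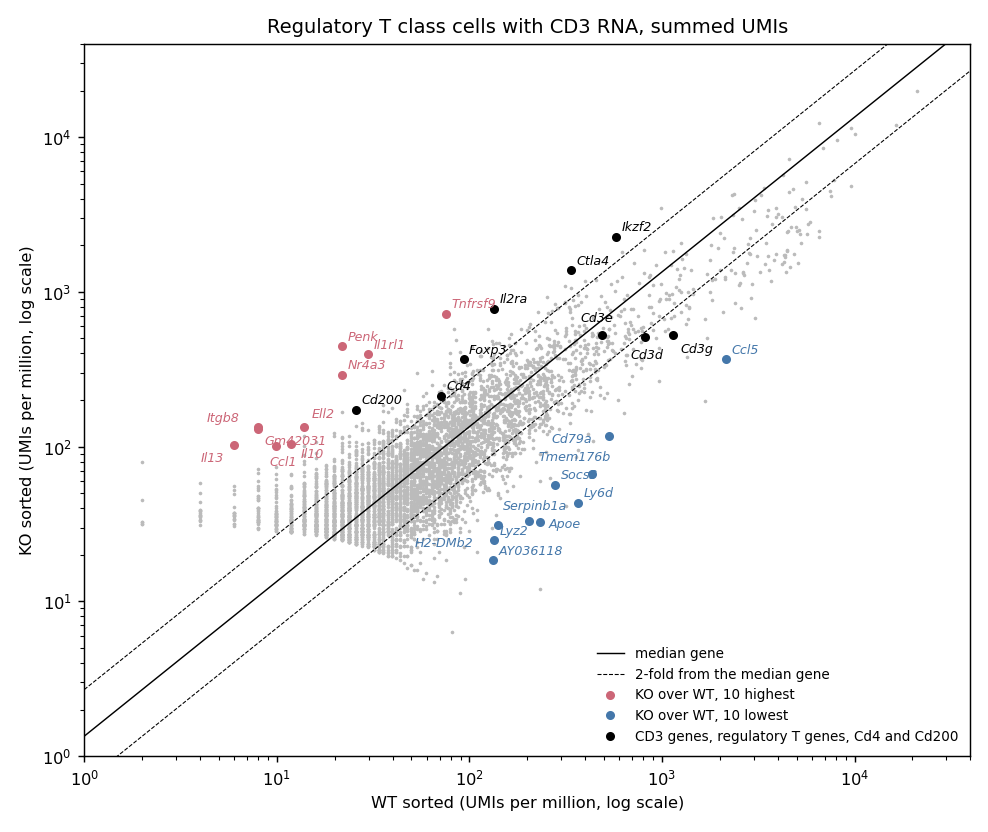
Level of each gene in KO sorted against WT sorted members, both in CPM on log axes, with the genes named by rule labelled. The highest and the lowest genes named in the text lie outside the dashed lines, which mark 2-fold from the median gene (solid line); Penk lies at 21.8 and 446 CPM.

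Other gene groups had their own pattern. Of 18 genes of NF-kB and costimulation signals, 10 were at least 1.5-fold higher and 1 lower (median log2 ratio 0.66), among them Nfkb1, a subunit of that factor, at 137 CPM in WT sorted members against 464 CPM in KO sorted members. Of 20 cell cycle genes, 10 were higher and 2 lower (median 0.53), but without cells holding other lineage markers 4 of 16 were higher and 4 lower, with a median of -0.10. After thinning that median was 0.01. Mki67 or Top2a, genes of dividing cells, were seen in 20.7% of WT and 23.5% of KO sorted members, and in 4.49% and 10.1% after thinning. In CD4 T cells the shares before thinning were 2.02% and 5.88%. Of 16 genes of lipid metabolism, 10 were higher and 3 lower (median 0.83). With the cells holding other lineage markers left out 6 of 14 were higher and 1 lower (median 0.33), among cells with a Foxp3 UMI 3 of 14 were higher and 2 lower, and after thinning the median was -0.03. This list in CD4 T cells had 8 of 13 genes higher and 1 lower, with a median of 0.75. Chemokine receptors were divided, with 5 of 11 higher and 4 lower (median 0.03, and 0.60 without cells holding other lineage markers). Cxcr4, the receptor of CXCL12, had 115 and 412 CPM in WT and KO sorted members, and Cxcr6, the receptor of CXCL16, 457 and 347 CPM.

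Genes of naive and central T cells leaned lower in KO members, to an extent that moved with the setting. None of 14 was higher and 7 were lower by 1.5-fold, with a median log2 ratio of -0.60. Leaving out cells with other lineage markers, 1 of 10 was higher and 3 lower (median -0.37), and after thinning 2 of 9 were higher and 2 lower (median -0.23). By total UMIs 1 was higher and 5 lower (median -0.17). On that scale 3389 of all 8158 genes were higher and 1027 lower, with a median of 0.40. Among cells with a Foxp3 UMI 1 of 8 was higher and 7 lower (median -1.08). Klf2, a transcription factor that keeps T cells circulating, had 2576 CPM in WT sorted, 789 CPM in KO sorted and 456 CPM in KO tumor members. Its log2 ratio was -2.14 (-2.25 to -2.02), and -2.47 among cells with a Foxp3 UMI. In CD4 T cells the list's median was 0.39, and the log2 ratio of Klf2 there was -0.83.

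Of 9 cytotoxic genes 7 were lower in KO members and 0 higher, with a median log2 ratio of -1.39. Without cells with CD8 or Trdc RNA 3 of 7 were lower, with a median of -0.49. Without cells holding other lineage markers 4 of 7 were lower (median -1.26), and among cells with a Foxp3 UMI 2 of 4 (median -1.29). In CD4 T cells 3 of 4 cytotoxic genes were lower and 1 higher, with a median of -1.65. Ccl5, a chemokine of memory and killer T cells, had 2155 CPM in WT sorted, 366 CPM in KO sorted and 980 CPM in KO tumor members. The log2 ratio of sorted members was -2.98 (-3.13 to -2.84), and -1.64 without cells with CD8 or Trdc RNA. Its share of cells was 38.0% in WT and 29.1% in KO sorted members, against 5.86% and 1.70% of B cells. Nkg7, a granule protein of killer cells, had 411 and 121 CPM (log2 ratio -2.19). Of 24 genes of the type I interferon response 10 were lower and 4 higher (median -0.51). By total UMIs 8 were lower and 6 higher (median -0.09), on a scale where the median over all genes was 0.40. Of 19 targets of interferon gamma 4 were higher and 7 lower, with a median of 0.19, and -0.31 without cells holding other lineage markers. Isg15, a ubiquitin-like protein of the type I response, had 99.3 and 28.6 CPM, while Rsad2, the antiviral protein viperin, had 9.93 and 61.7 CPM. In CD4 T cells the median of the type I list was -0.94.

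Of 18 early activation genes 6 were higher and 6 lower, near the 24.1% and 25.9% over all genes. Jun and Fos, the parts of AP-1, had 1706 and 1680 CPM in WT sorted members and 503 and 669 CPM in KO sorted members, log2 ratios of -2.19 and -1.76. Egr3, a factor induced by T cell receptor signals, had 21.8 and 92.9 CPM (log2 ratio 1.66). Socs3, an inhibitor of cytokine signals, had 280 and 56.6 CPM (log2 ratio -2.73), and in CD4 T cells its ratio was -3.55. Of 12 heat shock genes 7 were lower and 1 higher (median -0.82), and in CD4 T cells 5 of 11 were lower and 1 higher (median -0.55).

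The CD3 genes themselves were part of the rule and are given as values. Cd3e (chromosome 9, 44998740 to 45009627, minus strand) had 487 CPM in WT sorted members against 529 CPM in KO sorted members. Cd3d (44981786 to 44987339, plus strand) had 818 and 508 CPM, and Cd3g (44969572 to 44980431, minus strand) 1144 and 530 CPM. The 3 genes lie side by side on chromosome 9.

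Genes of major histocompatibility complex class II, which present peptides to CD4 T cells, turned in direction with the cells holding other lineage markers. Of 10 class II genes all 10 were lower in KO sorted members, with a median log2 ratio of -2.05. Without the cells holding other lineage markers, 3 of 6 were higher and 0 lower, with a median of 0.59. Cd74, the invariant chain of class II, had 2896 CPM in WT sorted members against 908 CPM in KO sorted members. Its log2 ratio was -2.10, and 0.75 without those cells and -2.22 among cells with a Foxp3 UMI. Of the cells holding other lineage markers, 23.3% of the WT and 32.0% of the KO sorted members had a Foxp3 UMI. Of 10 B cell markers 10 were lower (median -2.04), and without those cells 3 had enough UMIs, with a median of -0.63. These markers helped pick the cells left out, so the loss of their UMIs was built in. The 10 lowest genes by rule were Ly6d, AY036118, Apoe, Tmem176b, Serpinb1a, Ccl5, Lyz2, Socs3, H2-DMb2 and Cd79a. Of these Ly6d, H2-DMb2 and Cd79a are B cell genes, and Apoe and Lyz2 macrophage genes. Most of the lowest genes were also lower in KO CD4 T cells, some on few UMIs. The log2 ratios there were -3.55 for Socs3, -3.51 for Ly6d, -3.28 for Lyz2, -3.19 for Tmem176b and -2.99 for AY036118. They were -2.70 for Apoe, -2.51 for Cd79a, -1.02 or lower for H2-DMb2 and -0.72 for Ccl5, and Serpinb1a had no UMI there. Apoe had 232 CPM in WT sorted members against 32.4 CPM in KO sorted members, and it was seen in 52.5% and 19.1% of B cells of the same libraries. Whether that RNA was free in the suspension was not tested.

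Of the 604 genes that were higher, 491 kept 50 UMIs without the cells holding other lineage markers, and 323 were still at least 2-fold higher. Of the 643 that were lower, 453 kept 50 UMIs, 369 were still lower, and 1 was higher. Among cells with a Foxp3 UMI 353 and 315 kept 50 UMIs, and 228 and 249 kept their call.

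**Figure D4:**
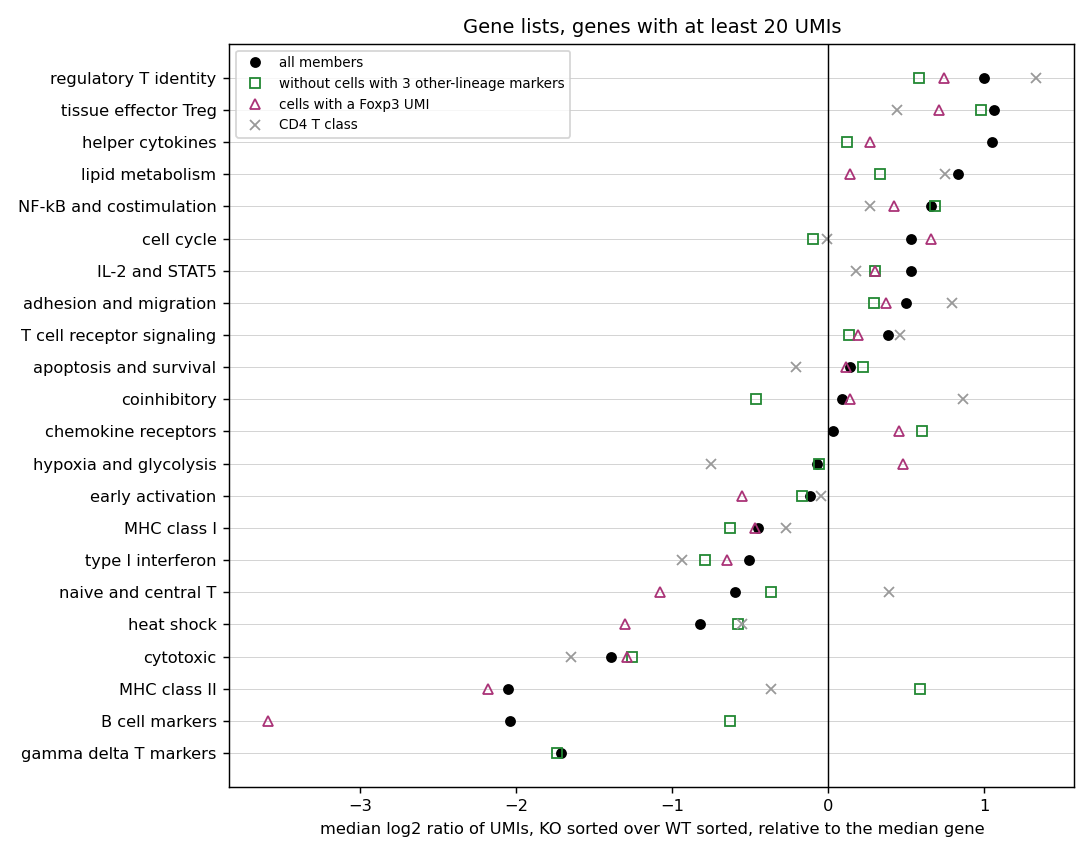
Median log2 ratio of KO to WT sorted members for each gene list, relative to the median gene, over all members, without cells holding other lineage markers, among cells with a Foxp3 UMI, and in CD4 T cells. The lists of regulatory T cell identity and effector program lie above 0 in each setting, and the class II list lies at -2.05 over all members and 0.59 without cells holding other lineage markers.

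Members were then set beside CD4 T cells with CD3 RNA from the same libraries, 248 WT sorted, 187 KO sorted and 63 KO tumor cells. The authors' classes were drawn from these genes, so the distances are descriptive. Of 3374 genes with 50 UMIs in both sorted libraries, 170 (5.04%) passed the 2-fold mark upwards in members of both, and 98 (2.90%) passed it downwards. In the KO tumor library, 82 of the 84 higher genes that had 50 UMIs there and 30 of the 31 lower genes were at least 2-fold apart in the same direction.

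Il2ra was 4.11 (log2) higher in members than in CD4 T cells of the WT sorted library and 4.13 higher in the KO sorted library. Foxp3 was 2.68 and 3.50 higher there and 4.61 higher in the KO tumor library. The 3 libraries gave 2.72, 2.09 and 1.92 for Ctla4, and 5.10, 3.75 and 3.64 for Ikzf2, in the same order. Of 16 regulatory T cell genes with 20 UMIs, 14 were at least 1.5-fold higher in both sorted libraries and 0 lower. Of 18 effector genes 15 were higher and 0 lower. Over the 6161 genes with 20 UMIs, 11.5% were higher and 8.46% lower by that mark.

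The 10 genes highest over CD4 T cells by the rule were Areg, Serpina3g, Ccr2, Gzmb, Fgl2, Ms4a1, Tmem176b, Ccl5, Cd79a and S100a6. Ccr2 had 379 CPM in WT sorted members against 0.935 CPM (1 UMI) in CD4 T cells, and 854 CPM against 13.9 CPM (8 UMIs) in the KO sorted library. Areg had 186 UMIs in WT sorted members and 0 in CD4 T cells of that library, at least 6.78 (log2) higher, and was 7.23 higher in the KO sorted library. Gzmb was 6.14 higher in WT sorted members, 5.59 in KO sorted members and at least 3.79 in KO tumor members. Fgl2, a secreted inhibitor of immune responses, had 151 and 350 CPM against 0 and 1.74 CPM in CD4 T cells. Serpina3g, a protease inhibitor of activated T cells, was 6.27 and 5.78 higher, and S100a6, a calcium-binding protein, 5.77 and 4.84 higher.

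Of these genes Ms4a1 and Cd79a are B cell genes. They were 5.23 and 4.87 (log2) higher in KO sorted members. Without cells holding other lineage markers their ratios were -0.34 and -0.01. Both genes are among the markers that picked the cells left out, so a fall was built in. Group 2 innate lymphoid cells share Il1rl1, Areg and Gata3 with tissue regulatory T cells. Their markers were summed over 15 genes, among them Il1rl1, Klrg1 and Il13 but not Areg or Gata3. The sum was 413 CPM in WT sorted members and 6.54 CPM in CD4 T cells, and 1055 and 24.4 CPM in the KO sorted library. Members held CD3 RNA by the rule, so its presence was fixed in advance. T cell receptor RNA was seen in 97.8% of all WT and 96.8% of all KO sorted members. It was not counted apart in cells with the markers above. Whether some members were group 2 innate lymphoid cells was not tested.

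Naive and central genes were far lower in members. Of 14 such genes 13 were lower in both sorted libraries and 0 higher, with median log2 ratios of -1.37 (WT sorted), -2.75 (KO sorted) and -3.02 (KO tumor). Lef1, a transcription factor of naive T cells, had 115 CPM in WT sorted members against 708 CPM in CD4 T cells, and 99.2 against 795 CPM in the KO sorted library. Tcf7, its relative, had 125 against 444 CPM, and 141 against 1093 CPM. Igfbp4, a binding protein of insulin-like growth factors, was -2.89 and -5.19, and Actn1, an actin crosslinker, -3.20 and -4.03.

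**Figure D5:**
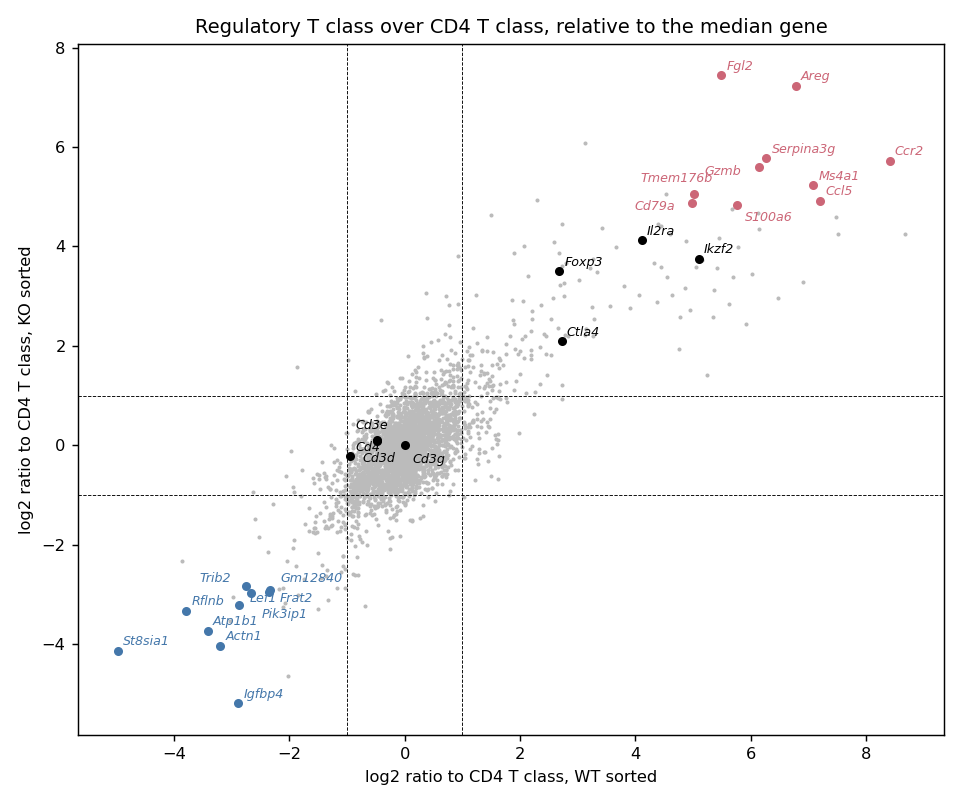
Log2 ratio of members to CD4 T cells in the KO sorted library against that in the WT sorted library, relative to the median gene, with the genes named by rule labelled. Areg, Ccr2 and Gzmb lie at the upper right and Lef1 and Actn1 at the lower left; genes at 0 UMIs in CD4 T cells are drawn at their lower bound.

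Members with and without a Foxp3 UMI were compared within the KO sorted library, a division chosen after the values were seen. Depth was alike, with medians of 3732 and 3576 UMIs. Klrg1 had 350 CPM in cells with Foxp3 and 21.9 CPM in the others, a log2 ratio of 3.93 (3.25 to 4.71), and in the KO tumor library 473 and 63.6 CPM. Of the 102 KO sorted members with Klrg1, 87.3% had Foxp3, against 29.0% of the rest. Il10 had 184 and 30.5 CPM, Itgb8 241 and 34.1 CPM, Tnfrsf9 1275 and 213 CPM and Gzmb 863 and 145 CPM. In the WT sorted library Klrg1 had 134 and 7.96 CPM and Tnfrsf9 253 and 15.9 CPM, with medians of 3673 and 5162 UMIs in cells with and without Foxp3. The distance there was smaller for the others of these genes. The log2 ratio was 0.71 for Gzmb (KO sorted 2.51), 0.56 for Il10 (2.53) and 1.56 for Itgb8 (2.76), the last 2 on 6 and 4 UMIs in WT members.

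Gata3 and Il1rl1 were less far apart by Foxp3 in the KO sorted library than Klrg1. In the KO sorted library Gata3 had 568 CPM in cells with Foxp3 and 584 CPM in the others, a log2 ratio of -0.10 (-0.29 to 0.09). Il1rl1 had 479 and 322 CPM (log2 ratio 0.51, 0.28 to 0.75), and 62.1% of members with it had Foxp3, against 36.4% of the others. In the WT sorted library the log2 ratio of Il1rl1 was 2.15, on 15 UMIs, and 8 of the 10 members with it had Foxp3. Of the 27 members with Il5 or Il13, 3 had Foxp3 (11.1%). Areg was divided between libraries. It had 934 and 305 CPM in the KO sorted and 1092 and 127 CPM in the WT sorted library, but 693 and 776 CPM in the KO tumor library.

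The members without a Foxp3 UMI held genes of other T cells. Il17a, the cytokine interleukin 17A, had 1 UMI in KO sorted members with Foxp3 and 167 in those without, 1.33 and 203 CPM. It came from few cells, 15 of 371 KO sorted members, and was seen in 0 of 109 KO tumor members. Tcf7 had 14.6 and 256 CPM, Cxcr6 112 and 562 CPM, Trdc 13.3 and 151 CPM, and Ccl1 7.99 and 186 CPM. Cd40lg, the CD40 ligand of helper T cells, had 7.99 and 130 CPM, and Eomes, a transcription factor of killer and memory cells, 2.66 and 76.7 CPM. In the KO tumor library Cxcr6 had 55.0 and 547 CPM, and Trdc had 0 and 153 CPM, a log2 ratio of -2.29 or lower with Foxp3. Cxcr6 and Trdc were thus low in Foxp3 cells of both KO libraries. A missing Foxp3 UMI does not show that a cell lacked Foxp3, since 1 gene is often missed at this depth.

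The KO tumor members, taken without a sort, differed from the KO sorted members by less than counting error in Foxp3 and Il2ra, and had lower Ctla4 and Ikzf2. The log2 ratio of tumor to sorted members was 0.01 (-0.35 to 0.35) for Foxp3 and -0.11 (-0.37 to 0.13) for Il2ra. Ctla4 had 681 CPM in KO tumor and 1383 CPM in KO sorted members, a log2 ratio of -0.80 (-1.03 to -0.57), and Ikzf2 1447 and 2280 CPM (-0.43). Tnfrsf4 was the higher in tumor members, 1044 against 801 CPM, and Ccl5 too, 980 against 366 CPM. The intervals for Foxp3 and Il2ra leave room for a difference either way of up to 0.37 (log2).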

How the data were processed

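Single cells were captured from NB9464D tumors of WT and KO mice. Per the submitters' processing notes, Cell Ranger 6.0.1, Seurat 4.0.5 and mm10 were used, and the role of each is not given in the sources used here. The authors deposited a natural log of each gene's UMIs, scaled to 10000 per cell with 1 added, together with total UMI counts per cell and cell type names. Whole UMIs were recovered by inverting that formula: all 60957742 nonzero values were whole within 0.01, and the sums over 19715 genes equalled the deposited totals in all 20376 cells.

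The members and the 34 gene lists were chosen with earlier results of these data known. UMIs were summed per class and library (Python 3.11.15, pandas 2.3.3, scipy 1.17.1). Intervals are exact at 95%: Poisson on CPM, binomial (Clopper-Pearson) on shares, conditional binomial on ratios. A gene at 0 was set to 3 UMIs, a bound. Genes needed 50 UMIs over both groups (20 for lists, with a 1.5-fold mark). Named genes were the 10 highest and 10 lowest with at least 100 CPM in 1 group, among genes past 2-fold, and for KO against WT the same direction in the thinned share of cells; for each list the 2 highest, the lowest and members against the median could be named. The steps were tested on simulated data. No doublet caller was run. The cells could not be assigned to the 16 samples.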

Additional observations from a re-analysis of the deposited data

How the results depend on the processing

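No paired analysis was possible because the cells carry only a group name, so the replicate names that the groups share could not be tied to cells. For the same reason no replicate could be left out. With only Foxp3-positive members, the share difference was 3.42 points, the ratio per CD4 T cell 9.23, and 375 genes were lower in KO members; without cells with Cd8a, Cd8b1 or Trdc the share difference was 5.51 points, and in the unsorted tumors 1.73 points. The genes higher and lower in KO members, then higher and lower against CD4 T cells, numbered 184, 170, 38 and 32 after thinning. They numbered 1302, 224, 256 and 57 by total UMIs, and 1029, 1047, 369 and 163 with a minimum of 20 UMIs. With no minimum they numbered 1272, 2187, 786 and 323, and at 3-fold 168, 158, 111 and 28. Totals without ribosomal, mitochondrial and hemoglobin genes gave 927 higher and 385 lower in KO members. Without cells holding other lineage markers 113 genes were higher than in CD4 T cells. These settings test fewer or more genes, use fewer cells or another scale. For the rest the cause was not tested.

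Among values past their fold mark (2-fold for a gene, 1.5-fold for a list's median), those that changed direction without cells holding other lineage markers were the ratios to KO sorted CD4 T cells of Ms4a1 (-0.34) and Cd79a (-0.01), the median of the B cell markers there (-0.11), that of interleukin 2 and STAT5 genes in the WT sorted library (-0.50) and the KO to WT median of class II genes (0.59). The interleukin 2 and STAT5 median was also -0.26 without cells with Cd8a, Cd8b1 or Trdc. Ms4a1, Cd79a and the other B cell markers helped pick the cells holding other lineage markers, so a fall in their ratios was built in. After thinning the lipid metabolism list (-0.03) turned. Ccl1 was counted as turned there too (-0.04), but WT members held 0 UMIs of it, so that value is a lower bound without direction. KO to WT medians of lists under that mark changed sign as well. Without cells holding other lineage markers these were cell cycle (-0.10), coinhibitory receptors (-0.46), interferon gamma targets (-0.31) and helper transcription factors (-0.06). After thinning they were coinhibitory receptors (-0.25), interferon gamma targets (-0.10), early activation (0.09) and NK markers (0.81). The NK value rested on 1 gene after thinning and on 3 genes before. The median over all genes after thinning was 0.12, above the early activation value. Leaving out cells whose barcode is in another library, an alternative chosen after seeing the data, gave 601 higher and 636 lower. Of the KO to WT values of single genes, 248 stayed close to their main value under the alternatives and 60 moved. The 1 counted as reversed was the bound of Ccl1.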
